A study of Mus musculus with 9 samples.

Results

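Aminoacyl tRNA synthetases are the enzymes that join each amino acid to its tRNA, and their genes were followed here across naive and Th2 CD4 T cells of the mouse. The genes were chosen by symbol alone: every probe set that names exactly 1 gene, where that gene's symbol is a synthetase symbol of the form Xars, Xars1 or Xars2, Farsa, Farsb or Eprs. This gave 35 probe sets for 34 genes, out of 19937 genes measured. Of the 34 genes, 18 encode cytosolic enzymes and 16 encode mitochondrial enzymes, whose symbols end in 2. Where a gene had several probe sets the brightest stood for it, which concerned Iars. The probe set of Aars also names Exosc6 and was not used.

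Charging is the step at which the genetic code is read, since the ribosome accepts whatever amino acid the tRNA carries. A cell keeps separate sets of enzymes for its cytosol and its mitochondria, both encoded in the nucleus, while glycyl and lysyl tRNA synthetase (Gars, Kars) serve both compartments from 1 gene each. Several cytosolic enzymes sit in a multisynthetase complex held together by the scaffold proteins Aimp1, Aimp2 and Eef1e1. Many cytosolic synthetase genes are known targets of ATF4, the transcription factor of the amino acid response, and activated T cells are known to raise their protein synthesis and amino acid uptake.

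The series holds 9 Affymetrix arrays, 3 for each of 3 groups of sorted CD4 T cells. Naive cells, sorted as CD4+ CD62L+ CD44-, were taken at day 29 from spleens after sham treatment. Acute Th2 cells (CD4+ CD69+ ST2+) came from the lung at day 29 after ovalbumin (OVA) was given as aerosol on 3 days in a row, and chronic Th2 cells, with the same surface markers, were lung cells of day 104, when aerosol had been given for 12 weeks. The mice with inflammation had received 3 injections of 10 µg OVA on 1.5 mg aluminium hydroxide before the 1% OVA aerosol. All cells of all groups were, per the labels, activated with antibodies to CD3 and CD28 for 8 h after the sort, so every level was measured after that step. The labels state no strain, age or sex. Samples are labelled as biological replicates without saying whether they came from separate mice, so a p-value measures only the spread between these samples. Tissue and cell state cannot be told apart in either comparison with naive cells, and day and stage cannot be told apart between the Th2 groups. In sorted bulk samples, fewer cells of a type and less RNA per cell cannot be told apart either.

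Values are log2 intensities, so that a difference of 1 is a doubling. The highest group mean of 33 of the 34 genes lay above 6.53, the 95th percentile of the means of 1015 olfactory receptor genes, which serve as a measure of background; the exception was the mitochondrial gene Pars2. The T cell marker Cd3e was high on every array, and 19 of 23 measured markers of CD8 T and NK cells, B cells, macrophages, eosinophils and mast cells, and lung epithelium or endothelium had means under 6.53. The Th2 transcription factor Gata3 was higher on every Th2 array than on every naive array, and so was Cd44, a marker for which the naive cells were sorted negative (7.30 to 7.72 against 9.18 to 9.67). Cd69, a sort marker of the Th2 cells, was not higher in them: it read 10.59, 12.08 and 12.20 in naive cells, 10.77, 11.34 and 11.23 in acute and 10.24, 10.22 and 11.14 in chronic Th2 cells. Its differences from naive cells were -0.51 and -1.09 without a call, and -1.02 and -1.61 (adjusted p = 0.0443 and 0.00462 by limma, both lower) without naive 1, the array described next. The gene for ST2 (Il1rl1) was not analysed here.

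The first naive array stood apart from its group before any comparison was made. Across all genes its Pearson correlation was 0.938 with naive 2 and 0.941 with naive 3, against 0.991 between those arrays. All 10 of 10 marks of T cell activation on a list lay below both other naive arrays, with a median level of 8.09 against 11.22 and 11.21. Il2, the cytokine gene that T cells switch on when activated, read 5.07 on naive 1 and 11.33 and 11.27 on naive 2 and 3. Irf4, a transcription factor induced by the T cell receptor, read 6.87 against 11.73 and 11.71. For some marks, such as Nr4a1 and Egr3, naive 1 lay within the range of the Th2 arrays: Nr4a1 read 10.72 on it against 10.71 to 12.12 there, and Egr3 8.22 against 8.09 to 8.58. The labels give naive 1 the same activation as the rest, while its values lay below both other naive arrays for all 10 marks, so that each comparison with naive cells is given with and without the library labelled naive 1.

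The cytosolic synthetase genes followed this split within the naive group. On naive 1, 17 of 18 lay below both other naive arrays (94.4%), against 42.8% of all genes and 47.3% of the genes above background, and those 17 were also at their lowest of all 9 arrays, which held for 21.3% of all genes and 24.1% of those above background. The median of naive 1 minus the mean of naive 2 and 3 was -1.58 over the cytosolic genes and -0.02 over all genes. Since a single array is compared, these are descriptions without a test.

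The widest gaps were in the enzymes for asparagine, tyrosine and glycine. Nars, which charges asparagine, read 8.42 on naive 1 and 11.26 and 10.70 on naive 2 and 3, a shift of -2.56. Yars, for tyrosine, read 7.15 against 9.94 and 9.47, a shift of -2.55. Gars, for glycine, read 8.36 against 10.93 and 10.58, a shift of -2.40. For each of these genes naive 2 and 3 lay in the range of the Th2 arrays or close to it, and naive 1 lay far below.

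The exception was Qars, which charges glutamine and belongs to the multisynthetase complex. It read 8.52 on naive 1, between 8.76 on naive 2 and 8.48 on naive 3. The median shift was -1.48 over the 7 complex members and -1.86 over the 11 cytosolic genes outside it. The mitochondrial genes did not share the shift: 5 of 16 lay below both other naive arrays (31.2%), and the median shift was 0.07. Naive 1 lay above both for 8 of 16, against 6634 of all 19937 genes. Yars2, the mitochondrial enzyme for tyrosine, was the member that moved with the cytosolic genes, at 7.34 against 9.06 and 8.81. Cars2, for cysteine, moved furthest the other way, at 7.99 against 7.22 and 7.10. In all 12 pairs of genes with the same symbol stem, such as Nars and Nars2, the cytosolic gene had the lower shift. Outside these pairs, the phenylalanine genes Farsa, Farsb and Fars2 had shifts of -1.29, -0.97 and 0.49. Those of Eprs, for glutamate and proline, Ears2 and Pars2 were -1.58, 0.14 and 0.33.

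**Figure D1:**
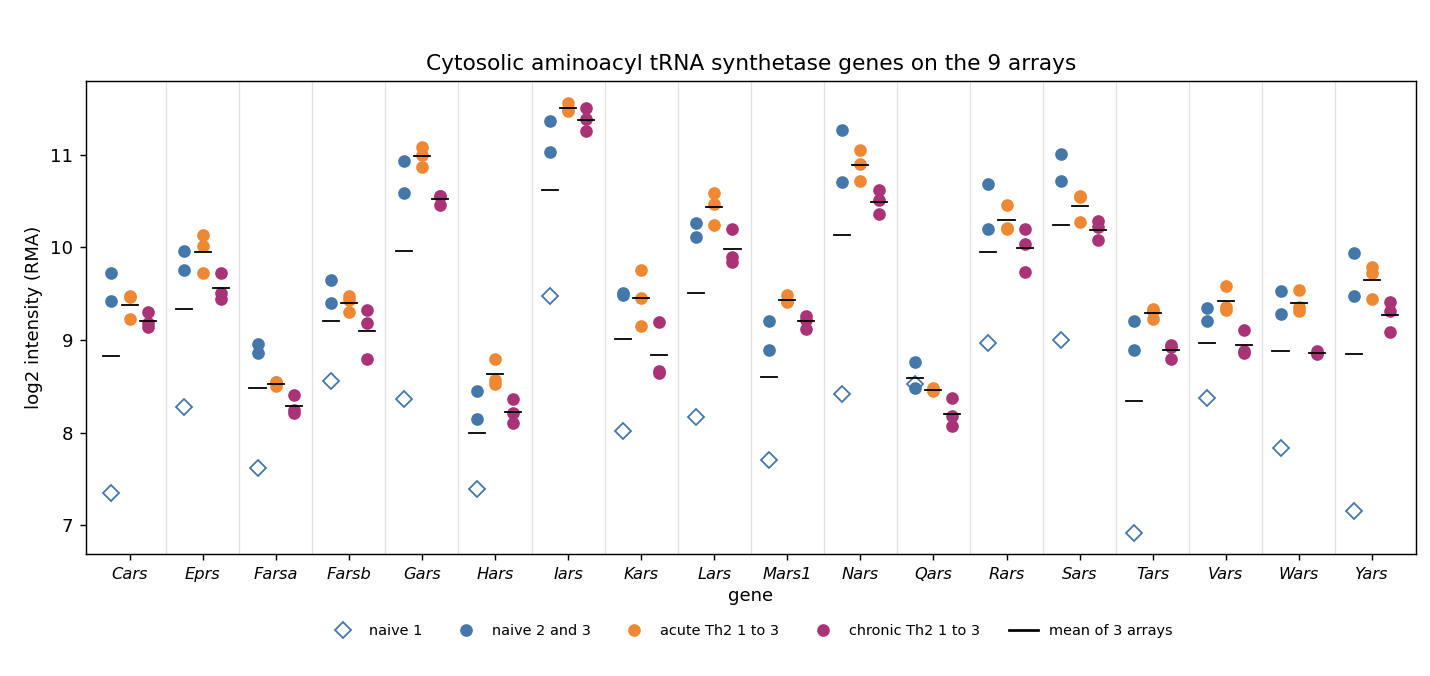
Log2 intensity of the 18 cytosolic synthetase genes on each of the 9 arrays, by gene. Diamonds are naive 1, filled points the other arrays coloured by group, and short lines the mean of the 3 arrays of a group; naive 1 is the lowest point for 17 of 18 genes.

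**Figure D2:**
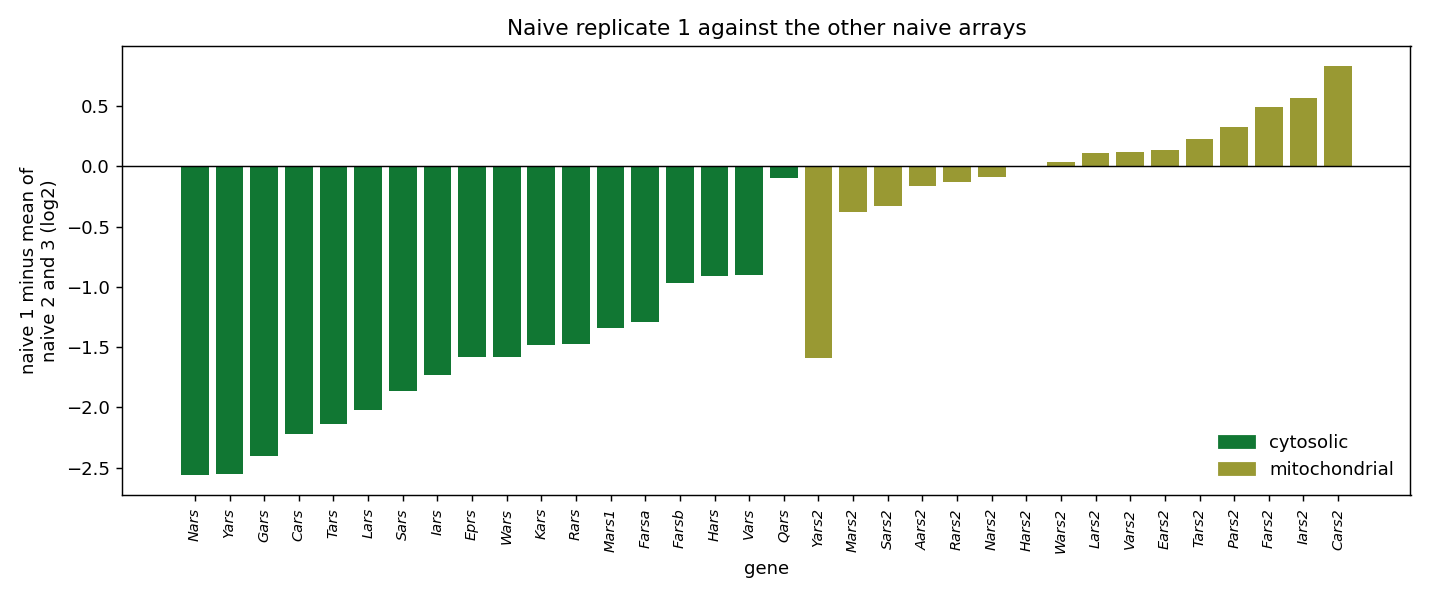
Naive 1 minus the mean of naive 2 and 3 (log2) for the 34 genes, as bars sorted within each enzyme group. Cytosolic genes run from -2.56 (Nars) to -0.10 (Qars), mitochondrial genes from -1.59 (Yars2) to 0.83 (Cars2).

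Because the cytosolic genes moved together on naive 1, the promoters were read for motifs of factors known to act on such genes. RefSeq windows of the GRCm38.p6 table were matched for 25 of 34 genes, 11 cytosolic and 14 mitochondrial, and the 250 bases before the listed start were searched on both strands. The core of the C/EBP-ATF response element that ATF4 binds, TGATGNAA, was found in 2 of 11 cytosolic promoters (Gars and Tars), in 0 of 14 mitochondrial promoters and in 3.45% of all 32851 windows. The E-box CACGTG, bound by Myc among other factors, was found in 2 of 11 (Farsb and Iars), in 0 of 14 and in 6.02% of all. The ETS letters CCGGAAG were found in 4 of 11, in 3 of 14 and in 6.91% of all. None of the 3 motifs was found for the cytosolic genes Eprs, Kars, Qars and Yars. A match is a run of letters and not a bound site, and with 11 promoters no share is more than a description. Whether any motif bears on the levels was not tested. The 4 promoters with an ATF4 core or an E-box are shown with those of Nars2 and Tars2, the mitochondrial genes called lower in both Th2 groups, which held none of the 3 motifs in the 250 bases; each run is the last 120 bases before the start, written 5′ to 3′ along the gene, and capitals mark the match:
Gars, chr6:55037881-55038000, plus strand: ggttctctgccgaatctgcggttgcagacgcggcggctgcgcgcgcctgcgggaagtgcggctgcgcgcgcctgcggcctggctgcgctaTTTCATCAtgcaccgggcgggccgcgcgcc
Tars, chr15:11399659-11399778, minus strand: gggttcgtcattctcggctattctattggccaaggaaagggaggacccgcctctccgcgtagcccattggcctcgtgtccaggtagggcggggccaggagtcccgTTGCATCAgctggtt
Iars, chr13:49682010-49682129, plus strand: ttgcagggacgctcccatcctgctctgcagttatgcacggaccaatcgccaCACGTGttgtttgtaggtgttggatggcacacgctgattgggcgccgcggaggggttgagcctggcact
Farsb, chr1:78488898-78489017, minus strand: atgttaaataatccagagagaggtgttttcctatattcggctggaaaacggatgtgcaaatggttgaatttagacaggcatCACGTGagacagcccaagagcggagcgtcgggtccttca
Nars2, chr7:96951407-96951526, plus strand: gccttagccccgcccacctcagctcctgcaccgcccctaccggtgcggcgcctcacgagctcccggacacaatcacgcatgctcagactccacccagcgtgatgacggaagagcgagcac
Tars2, chr3:95754978-95755097, minus strand: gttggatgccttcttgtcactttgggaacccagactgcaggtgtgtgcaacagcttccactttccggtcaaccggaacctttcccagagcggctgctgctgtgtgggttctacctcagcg

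In acute Th2 cells against naive cells, no cytosolic synthetase gene passed the test. With limma, 0 of 18 were called at an adjusted p under 0.05, where 5.87% of all genes were called, 3.67% higher and 2.2% lower. An unadjusted p under 0.05 was seen for 2 of 18 (Hars and Mars1), against 16.3% of all genes. The differences of 17 of 18 were above 0, against 41.9% of all genes, with a median of 0.59 against -0.03 over all genes. The arrays of both groups did not overlap for 5 of 18 genes (Hars, Iars, Mars1, Tars and Qars). This is near the 28.4% of genes above background, where the share of all genes was 19.7%.

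The largest difference was that of Gars. Gars read 8.36, 10.93 and 10.58 in naive cells and 10.87, 11.08 and 10.99 in acute Th2 cells. Naive 2 already lay within the range of the acute arrays, and the difference of 1.02 (SE 0.56) had an adjusted p of 0.446 by limma. Without naive 1 the same difference was 0.22.

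Leaving out naive 1 moved many of these differences to the other side of 0 and brought calls in both directions. The median of the 18 cytosolic differences was then -0.03, with 8 of 18 above 0, and 2 of 18 were called, where 12.2% of all genes were called, 6.05% higher and 6.11% lower. The arrays then did not overlap for 7 of 18 cytosolic genes, against 35.8% of all genes. Mars1, the methionine enzyme of the multisynthetase complex, rose in that fit, with an adjusted p close to the threshold. It read 7.71, 9.20 and 8.89 in naive cells and 9.42, 9.48 and 9.41 in acute Th2 cells, so that every acute array lay above every naive array. Its difference was 0.84 (SE 0.32, adjusted p = 0.222 by limma) with all arrays and 0.39 (SE 0.11, adjusted p = 0.0491) without naive 1. Without naive 1 and chronic 3 together Mars1 was not called. Farsa, the catalytic subunit for phenylalanine, fell without naive 1. It read 7.62, 8.86 and 8.96 in naive cells and 8.50, 8.55 and 8.55 in acute Th2 cells, so that the acute arrays lay between naive 1 and the other naive arrays. The difference turned from 0.05 (adjusted p = 0.971 by limma) to -0.38 (SE 0.09, adjusted p = 0.0293). Farsb, the other subunit of that enzyme, had differences of 0.19 and -0.13 without a call in either fit.

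In chronic Th2 cells against naive cells, 0 of 18 cytosolic genes were called by limma, where 7.88% of all genes were called, 3.68% higher and 4.2% lower. An unadjusted p under 0.05 was seen for 1 of 18 (Qars), against 25.6% of all genes. The differences ran from -0.38 for Qars to 0.76 for Iars, with a median of 0.22 against 0.04 over all genes. Above 0 were 11 of 18, near the 57.3% of all genes, where the share among genes above background was 39.4%. After quantile normalization 17 of 18 were above 0, with a median of 0.40. Iars, for isoleucine, read 9.47, 11.03 and 11.36 in naive cells and 11.50, 11.38 and 11.25 in chronic Th2 cells, so that naive 3 lay among the chronic arrays. Its second, dimmer probe set read 8.89, 11.04 and 10.93 in naive cells, 10.88, 11.18 and 11.09 in acute Th2 cells and 10.63, 10.72 and 10.86 in chronic Th2 cells, with naive 1 again the lowest. The arrays did not overlap for 1 of 18 cytosolic genes (Qars), against 27.9% of all genes and 34.7% of those above background.

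Without naive 1, 4 of 18 cytosolic genes fell in chronic Th2 cells and none rose, where 5.84% of all genes rose and 11.4% fell, and 11 of 18 had an unadjusted p under 0.05, against 30.7% of all genes. The median was then -0.39, with 2 of 18 (Iars and Mars1) above 0. Sars, for serine, read 9.0, 11.01 and 10.72 in naive cells and 10.08, 10.22 and 10.28 in chronic Th2 cells, a difference of -0.68 (SE 0.13, adjusted p = 0.00786 by limma) without naive 1 and -0.05 with it. Farsa read 8.21, 8.41 and 8.25 in chronic Th2 cells, below naive 2 and 3, with a difference of -0.62 (adjusted p = 0.00219 by limma) without naive 1 and -0.19 with it. Wars, for tryptophan, read 7.83, 9.53 and 9.28 in naive cells and 8.86, 8.85 and 8.88 in chronic Th2 cells, and its difference was -0.55 (adjusted p = 0.00907 by limma) without naive 1 and -0.02 with it. For Sars, Farsa and Wars the chronic arrays lay above naive 1 and below both other naive arrays. Qars read 8.18, 8.37 and 8.07, below all naive arrays, and it was the cytosolic gene whose difference hardly moved, at -0.38 (adjusted p = 0.0664 by limma) with naive 1 and -0.42 (adjusted p = 0.0423) without it. Without naive 1 the arrays did not overlap for 13 of 18 cytosolic genes, against 44.6% of all genes. Shares without naive 1 are given over all genes only, dim ones included, while all 18 cytosolic genes lay above background. With all arrays 4.2% of all genes fell in chronic Th2 cells, and 9.17% when only genes above background were fitted.

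The mitochondrial genes gave the calls that did not hang on naive 1. In acute Th2 cells, 2 of 16 fell (Nars2 and Tars2) and none rose by limma, where 2.2% of all genes fell. In chronic Th2 cells, 4 of 16 fell (Nars2, Tars2, Iars2 and Hars2) and none rose, where 4.2% of all genes fell. When only the genes above background were fitted, 2 of 15 fell in acute and 5 of 15 in chronic Th2 cells. In that fit 4.45% and 9.17% of all fitted genes fell. The median difference of the 16 genes was -0.15 in acute and -0.29 in chronic Th2 cells, with 3 of 16 and 0 of 16 above 0. Over all genes the medians were -0.03 and 0.04, with 41.9% and 57.3% above 0. Among genes above background they were -0.04 and -0.10, with 43.3% and 39.4% above 0. Both comparisons share the naive arrays.

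Nars2, which charges mitochondrial tRNA with asparagine, changed most. It read 8.67, 8.98 and 8.55 in naive cells, 7.12, 7.80 and 7.58 in acute Th2 cells and 7.30, 7.44 and 7.21 in chronic Th2 cells. Every Th2 array lay below every naive array, and naive 1 lay between the other naive arrays. Nars2 was 2.35-fold lower in acute Th2 cells (log2 difference -1.23, SE 0.18, adjusted p = 0.00453 by limma) and 2.67-fold lower in chronic Th2 cells (log2 difference -1.41, SE 0.18, adjusted p = 0.00209). Both calls held in all 18 alternative settings. Its cytosolic counterpart Nars had differences of 0.76 and 0.37 in the same comparisons, and -0.09 and -0.49 without naive 1, none of them called.

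Tars2, for threonine, read 8.56, 8.40 and 8.25 in naive cells, 7.83, 7.95 and 7.92 in acute Th2 cells and 7.61, 7.60 and 7.87 in chronic Th2 cells. The naive arrays again lay above all Th2 arrays. Tars2 was 1.42-fold lower in acute Th2 cells (log2 difference -0.50, SE 0.11, adjusted p = 0.0311 by limma) and 1.63-fold lower in chronic Th2 cells (log2 difference -0.71, SE 0.11, adjusted p = 0.00589). The chronic call held in all 18 settings. The acute call was lost when naive 2 (adjusted p = 0.0831), acute 1 (0.107), acute 2 (0.0869), acute 3 (0.106), chronic 1 (0.05 when rounded, not under it) or chronic 2 (0.0515) was left out of the limma fit, while the difference in these fits stayed between -0.53 and -0.47. Of the 18 settings, 8 kept the acute call, with losses outside these fits as well.

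Iars2, for isoleucine, and Hars2, for histidine, fell in chronic Th2 cells. Iars2 read 8.39, 8.02 and 7.61 in naive cells, 7.55, 7.69 and 7.61 in acute Th2 cells and 7.21, 7.32 and 7.24 in chronic Th2 cells, with a chronic difference of -0.75 (SE 0.17, adjusted p = 0.0316 by limma). Hars2 read 7.51, 7.58 and 7.45, then 7.25, 7.33 and 7.32, then 7.16, 7.16 and 7.20, with a chronic difference of -0.34 (SE 0.07, adjusted p = 0.0248 by limma). The chronic arrays of both genes lay below all naive arrays, and the naive arrays of Hars2 differed by little. The Iars2 call was lost without naive 2 (0.0844), acute 1 (0.0524), acute 2 (0.0609), acute 3 (0.0629), chronic 1 (0.12), chronic 2 (0.0879) or chronic 3 (0.058), each an adjusted p by limma. The Hars2 call was lost without naive 2 (0.0862), acute 3 (0.0539), chronic 1 (0.0787) or chronic 2 (0.0851), while the differences in these fits stayed below 0. Of the 18 settings, 9 kept the Iars2 call and 12 the Hars2 call, with losses outside these fits as well.

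Without naive 1, 3 of 16 mitochondrial genes fell in acute and 7 of 16 fell in chronic Th2 cells by limma, where 6.11% and 11.4% of all genes fell. The 4 genes called with all arrays stayed called, and Yars2, Mars2 and Rars2 joined them. Yars2 read 7.34, 9.06 and 8.81 in naive cells, 7.60, 8.25 and 7.96 in acute Th2 cells and 7.46, 7.80 and 7.64 in chronic Th2 cells, so that the Th2 arrays lay above naive 1 and below the other naive arrays. Its difference moved from -0.47 to -1.0 (SE 0.19, adjusted p = 0.00817 by limma) in acute and from -0.77 to -1.31 (SE 0.19, adjusted p = 0.00177) in chronic Th2 cells. Mars2, for methionine, had a chronic difference of -0.40 (adjusted p = 0.0181 by limma), and Rars2, for arginine, one of -0.49 (adjusted p = 0.0306).

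The other mitochondrial genes were not called in either comparison. Cars2 had a chronic difference of -0.37. That of Ears2, for glutamate, was -0.30 (adjusted p = 0.14 by limma). Pars2, for proline and below background, had an acute difference of -0.29 (adjusted p = 0.298 by limma). Lars2 (leucine), Vars2 (valine) and Wars2 (tryptophan) differed from naive cells by between -0.14 and 0.13 in both comparisons. Sars2 (serine) had the highest acute difference, at 0.21 (SE 0.13, adjusted p = 0.536 by limma), with arrays of 7.23, 7.46 and 7.67 in naive and 7.51, 7.83 and 7.66 in acute Th2 cells. These overlapped. Aars2 (alanine), with group means from 6.46 to 6.67, lay close to the background level of 6.53. Groups did not overlap for 6 of 16 mitochondrial genes in the acute and 9 of 16 in the chronic comparison. The shares were 19.7% and 27.9% of all genes, and 28.4% and 34.7% of those above background.

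**Figure D3:**
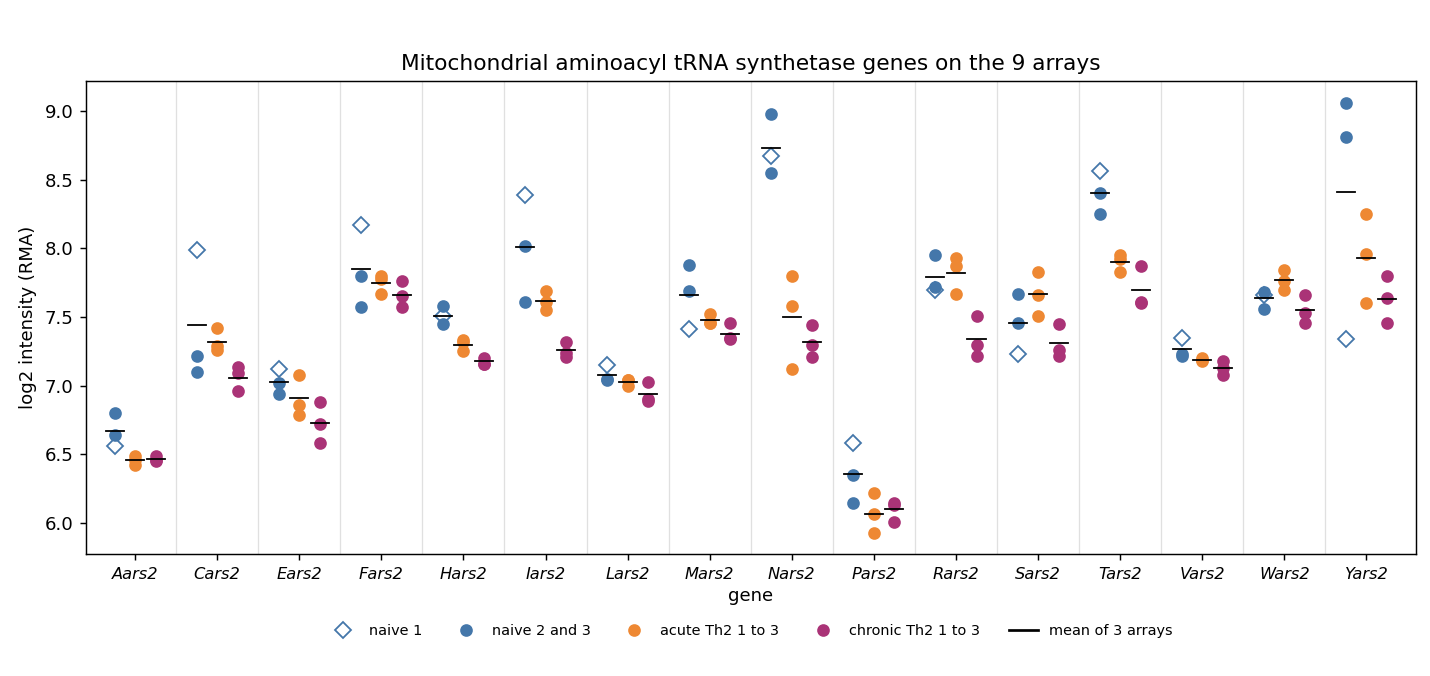
Log2 intensity of the 16 mitochondrial synthetase genes on each of the 9 arrays, with the same symbols as for the cytosolic genes. The naive points of Nars2 and Tars2 all lie above the Th2 points, and naive 1 lies far below its group for Yars2.

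**Figure D4:**
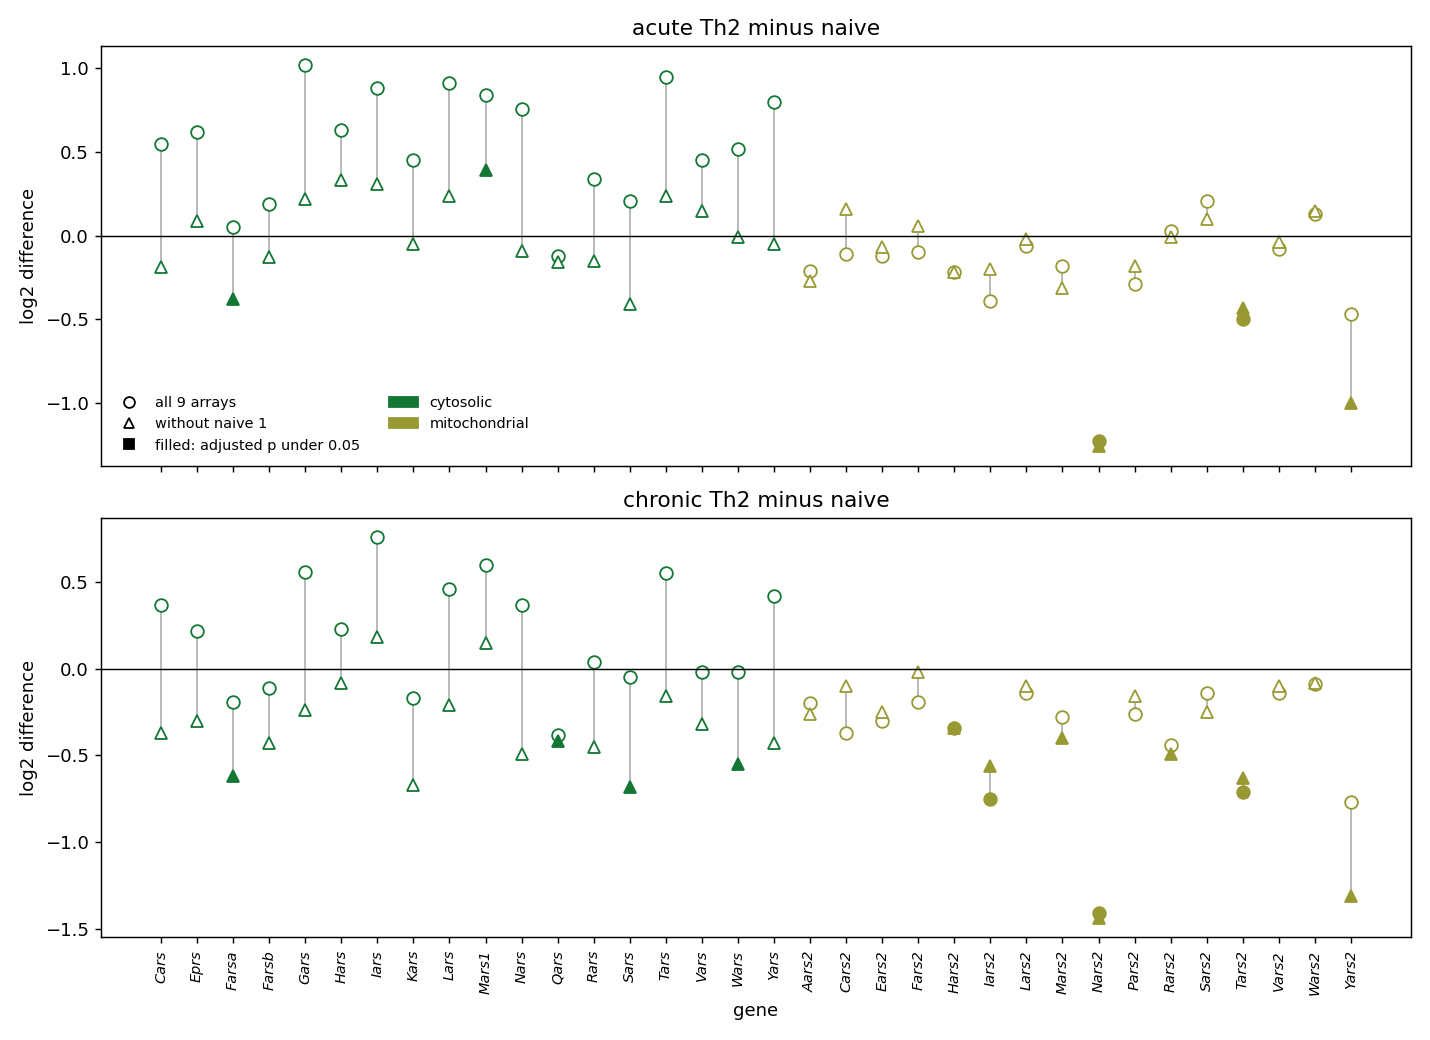
Log2 difference from naive cells for the 34 genes, acute Th2 cells above and chronic Th2 cells below, with all 9 arrays (circles) and without naive 1 (triangles); filled symbols have an adjusted p under 0.05. Cytosolic medians drop from 0.59 to -0.03 and from 0.22 to -0.39, mitochondrial medians go from -0.15 to -0.12 and from -0.29 to -0.26.

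Genes of the same symbol stem, such as Nars and Nars2, were set beside each other. The cytosolic gene had the higher difference in 11 of 12 pairs in acute and 12 of 12 in chronic Th2 cells against naive cells. Without naive 1 this held in 8 of 12 and 7 of 12 pairs. The histidine, isoleucine, methionine, asparagine, threonine and tyrosine pairs kept the order in both comparisons under both settings. Yars, for example, was at -0.05 and Yars2 at -1.0 in acute Th2 cells without naive 1. The cysteine, arginine and tryptophan pairs turned in acute Th2 cells, the cysteine pair from 0.55 for Cars and -0.11 for Cars2 to -0.19 and 0.16. Outside these pairs, Farsa, Farsb and Fars2 were at 0.05, 0.19 and -0.10 in acute and -0.19, -0.11 and -0.19 in chronic Th2 cells. Without naive 1 they were at -0.38, -0.13 and 0.06, then -0.62, -0.43 and -0.02, with both cytosolic subunits below Fars2. Eprs lay above Ears2 and Pars2 in chronic Th2 cells, at 0.22 against -0.30 and -0.26. It lay below them without naive 1, at -0.30 against -0.25 and -0.16. In acute Th2 cells Eprs lay above them in both fits.

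Between the Th2 groups naive 1 does not enter the difference, and all 18 cytosolic genes were lower in value in chronic than in acute Th2 cells. None was called: 0 of 18 cytosolic and 0 of 16 mitochondrial genes passed by limma, where 0.0301% of all genes did (0.015% higher and 0.015% lower). An unadjusted p under 0.05 was seen for 1 cytosolic (Qars) and 3 mitochondrial genes (Rars2, Sars2 and Wars2), against 14.9% of all genes. The median difference was -0.39 over the cytosolic genes, -0.18 over the mitochondrial genes and 0.04 over all genes, of which 57.6% were above 0. Most genes on the array are dim, and among the 10579 genes whose highest group mean lay above the background level of 6.53 the median was -0.10, with 33.9% above 0. All 3 chronic arrays lay below all 3 acute arrays for 12 of 18 cytosolic genes (66.7%) and 7 of 16 mitochondrial genes (43.8%), against 10.8% of all genes and 19.2% of the genes above background. In either direction, arrays did not overlap for 22.7% of all genes and 26.6% of those above background.

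Kars, for lysine, had the largest cytosolic difference, and Iars, by its brighter probe set, the smallest. Kars read 9.15, 9.75 and 9.45 in acute and 8.64, 8.67 and 9.19 in chronic Th2 cells, a difference of -0.62 (95% interval -1.49 to 0.25, adjusted p = 0.433 by limma). Chronic 3 lay within the acute range and the other chronic arrays below it. Iars read 11.56, 11.47 and 11.48 in acute and 11.50, 11.38 and 11.25 in chronic Th2 cells, a difference of -0.13. With the mean of its probe sets the Iars difference was -0.22, further from 0 than that of Cars (-0.18). Wars had arrays close together within each Th2 group, at 9.31, 9.54 and 9.36 in acute and 8.86, 8.85 and 8.88 in chronic Th2 cells. Its difference was -0.54 (95% interval -1.39 to 0.31, adjusted p = 0.471 by limma), with an interval that carries the spread of the naive arrays. Of the mitochondrial genes Rars2 differed most, at 7.67, 7.93 and 7.87 in acute and 7.30, 7.51 and 7.22 in chronic Th2 cells. These did not overlap, and the difference of -0.48 (SE 0.12) had an adjusted p of 0.322 by limma.

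Naive 1 enters this comparison through the shared estimate of the spread. Without it, 13 of 18 cytosolic and 5 of 16 mitochondrial genes had an unadjusted p under 0.05 between the Th2 groups, against 21.9% of all genes, and still 0 of either were called, where 0.0602% of all genes were (0.0201% higher and 0.0401% lower). The median level of the olfactory receptor genes was 5.67, 5.51 and 5.15 on chronic 1, 2 and 3 and between 4.98 and 5.21 on the acute arrays, so that background was higher on chronic 1 and 2. On chronic 3, where it lay within the acute range, 14 of 18 cytosolic genes were below all acute arrays, against 23% of all genes and 35.8% of those above background. On chronic 1 and 2 the count was 17 of 18 each, against 32.5% and 24.1% of all genes and 54.4% and 37.8% of those above background. Quantile normalization of the arrays left all 18 cytosolic differences below 0 with a median of -0.21, and 3 of 16 mitochondrial differences above 0 with a median of -0.08.

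**Figure D5:**
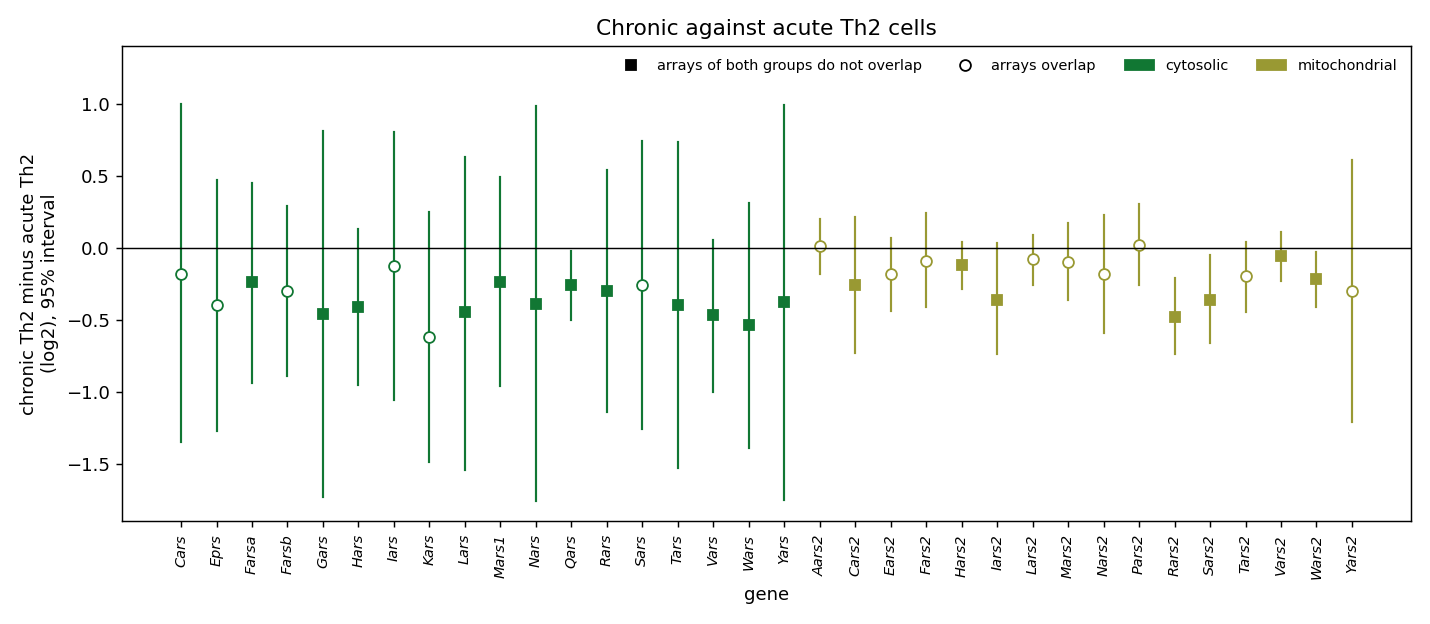
Chronic minus acute Th2 cells (log2) for the 34 genes, with 95% intervals from the limma fit of all arrays; filled squares mark genes with no overlap of acute and chronic arrays. All cytosolic points lie below 0, between -0.13 and -0.62, and most intervals include 0.

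Other genes around tRNA charging were read from lists of known genes. The scaffold genes of the multisynthetase complex had no call with all arrays, by limma, in any comparison (unadjusted p under 0.05 for 0 of 3 in acute and 1 of 3 in chronic Th2 cells against naive cells, and 0 of 3 between the Th2 groups). Over all genes, 16.3%, 25.6% and 14.9% had such a p in these comparisons, in the same order. Without naive 1, 2 of 3 fell in both Th2 groups, where 6.11% (acute) and 11.4% (chronic) of all genes fell. Aimp2 read 7.48, 8.46 and 8.34 in naive cells, 7.78, 7.84 and 7.84 in acute and 7.43, 7.66 and 7.50 in chronic Th2 cells, with differences of -0.58 and -0.87 (adjusted p = 0.00476 and 0.000461 by limma) without naive 1. Eef1e1 read 8.00, 10.71 and 10.74, then 10.11, 10.06 and 9.90, then 9.99, 9.92 and 9.80, with differences of -0.70 and -0.82. Both scaffold genes shared the low naive 1 value of the cytosolic enzymes. Of 13 measured partners of charging, such as editing and amidating enzymes, 0 were called with all arrays. An unadjusted p under 0.05 was seen for 2 of them in acute and 4 in chronic Th2 cells, against 16.3% and 25.6% of all genes. Without naive 1, 1 of them fell in acute and 3 fell in chronic Th2 cells, against the same 6.11% and 11.4% of all genes.

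Genes that make or import amino acids were low on naive 1 too: 13 of 13 synthesis and 10 of 10 uptake genes lay below both other naive arrays. The shares were 42.8% of all genes and 47.3% of those above background. The low values were not particular to these lists. They were seen for 15 of 15 cytosolic and 9 of 11 mitochondrial translation factors and 15 of 19 ATF4 response genes. For Myc and mTOR genes the count was 10 of 13, and for charging partners 5 of 13. Among the synthesis and uptake genes Got1 rose in both Th2 groups. Got1, which makes aspartate, read 9.46, 10.48 and 10.37 in naive cells, 12.04, 11.98 and 11.95 in acute and 11.77, 11.95 and 11.70 in chronic Th2 cells. Every Th2 array lay above every naive array, with differences of 1.89 and 1.71 (adjusted p = 0.00201 and 0.00338 by limma). Of the 13 synthesis genes, 2 rose in acute (Got1 and Psph, for serine) and 1 in chronic Th2 cells (Got1), where 3.67% and 3.68% of all genes rose, and none fell. Without naive 1, 5 rose and 1 fell in acute Th2 cells, where 6.05% of all genes rose and 6.11% fell, and 2 rose and 3 fell in chronic Th2 cells, where 5.84% rose and 11.4% fell. Asns, which makes asparagine, read 5.97, 10.75 and 10.33 in naive cells, 12.04, 12.12 and 12.07 in acute and 11.93, 12.05 and 11.81 in chronic Th2 cells. Its differences were 3.06 and 2.91 without a call and 1.54 and 1.39 (adjusted p = 0.000107 and 0.000175 by limma) without naive 1. The genes for making asparagine and for charging mitochondrial tRNA with it (Asns, Nars2) thus changed in opposite directions in that fit, with no call for cytosolic Nars.

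Of 19 ATF4 response genes, 1 rose in acute Th2 cells, a share near the 3.67% of all genes that rose. Nupr1, a stress-induced nuclear protein gene, read 6.26, 6.50 and 6.81 in naive cells, 7.71, 8.61 and 8.16 in acute Th2 cells and 7.14 on each chronic array, with an acute difference of 1.64 (adjusted p = 0.00282 by limma). None of the 19 was called in chronic Th2 cells, where 6 had an unadjusted p under 0.05, against 25.6% of all genes. Without naive 1, 2 rose in acute Th2 cells (Nupr1 and Atf3), and 1 rose (Atf3) and 2 fell in chronic Th2 cells. These counts were also near the shares of all genes (6.05% rose in acute, 5.84% rose and 11.4% fell in chronic Th2 cells). Of 10 uptake genes 0 were called with all arrays by limma. In acute and chronic Th2 cells 2 and 0 had an unadjusted p under 0.05, against 16.3% and 25.6% of all genes. Without naive 1, 2 rose and 2 fell in acute Th2 cells (6.05% and 6.11% of all genes) and 4 fell in chronic Th2 cells (11.4% of all genes), among them the cystine transporter gene Slc7a11, at 4.38, 8.47 and 8.30 in naive cells, 6.56, 6.52 and 6.43 in acute and 5.85, 5.39 and 5.51 in chronic Th2 cells. The Th2 arrays of Slc7a11 lay between naive 1 and the other naive arrays.

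Of 13 Myc and mTOR pathway genes, 3 fell in chronic Th2 cells, where 4.2% of all genes fell. None were called in acute Th2 cells, where 3 had an unadjusted p under 0.05 by limma, against 16.3% of all genes. The kinase gene Mtor fell by 0.46 (adjusted p = 0.0277 by limma), Rptor, its partner in the growth-controlling complex, by 0.41 (adjusted p = 0.0408) and Tsc2, an inhibitor of that complex, by 0.37 (adjusted p = 0.0338), each on the log2 scale. Without naive 1, 1 of the 13 fell in acute and 5 fell in chronic Th2 cells, where 6.11% and 11.4% of all genes fell. Myc itself fell in both, by -0.89 and -1.13 (adjusted p = 0.0062 and 0.00154 by limma). With naive 1 its differences were -0.23 and -0.47 without a call. Cytosolic translation factors (15 measured) and mitochondrial translation factors (11 measured) had no call with all arrays by limma. Unadjusted p under 0.05 was seen for 0 and 0 of them in acute and 3 and 0 in chronic Th2 cells. Over all genes the shares were 16.3% in acute and 25.6% in chronic Th2 cells. Without naive 1, 7 of 15 and 4 of 11 fell in chronic Th2 cells and none rose, where 11.4% of all genes fell and 5.84% rose. Between the Th2 groups the medians of all 8 lists around charging, synthesis, uptake, signalling and translation were below 0, from -0.13 to -0.41, with no call with all arrays; without naive 1 Psph fell (difference -0.70, adjusted p = 0.049 by limma).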

How the data were processed

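Total RNA of 9 samples was labelled and hybridised to Affymetrix arrays, per the labels' protocols. The deposited values are log2 intensities, 1 for each probe set on each array, made by the authors with RMA, per the submitters' processing notes, which also name limma. The sources used here state no versions, probe annotation, genome build or filters. Values were used as deposited. Of 34760 probe sets, 21640 name 1 gene and 1321 name several, which were left out, and the brightest probe set stood for a gene.

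All 9 arrays, in 3 groups taken from the titles, entered 1 two-sided fit (lmFit, contrasts.fit and eBayes of limma 3.58.1, run in R 4.3.3). The Benjamini-Hochberg adjustment covered the 19937 genes of a comparison, and an adjusted p under 0.05 made a call. SE is that of the fit. The code was tested on simulated data. With 3 arrays against 3 an exact permutation test cannot go below 0.1, so none is given. The number of arrays limits the precision.

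Each comparison was recomputed under 18 alternative settings. The members and lists were chosen with earlier results of these data known. By rule, every synthetase gene may be named, with each array's value for called members and for the largest and smallest differences. Of the lists of pathway genes, called members were named, and activation marks and other examples were picked with their values known. Cell type names come from the labels. Promoter windows are RefSeq's, from the GRCm38.p6 table. Probe sequences were not examined, so signal shared between related genes such as Hars and Hars2 was not tested.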

Additional observations from a re-analysis of the deposited data

How the results depend on the processing

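The mitochondrial calls of Nars2 (both Th2 groups) and Tars2 (chronic) held under all 18 settings, and all 18 cytosolic differences between the Th2 groups stayed below 0 in each, with medians from -0.45 to -0.21. The cytosolic direction against naive cells did not: over the settings, 8 to 17 of 18 differences were above 0 in acute and 2 to 17 in chronic Th2 cells. Farsa in acute Th2 cells reversed from 0.05 to -0.38 without naive 1, and likewise without naive 1 and chronic 3 together, where the adjusted p was 0.0343; it ranged from -0.38 to 0.29 with 1 array left out at a time.

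Counts of called genes are given next for acute against naive, chronic against naive and chronic against acute, in that order. The cytosolic counts of 0, 0 and 0 became 1, 1 and 5 with array weights (0.17 for naive 1, 8.23 for acute 3) and 1, 4 and 3 without naive 1 and chronic 3 together; the chronic count against naive was 1 with each array centred on its median. The mitochondrial counts of 2, 4 and 0 became 5, 8 and 6 with array weights; 3 and 6 in the comparisons with naive cells without naive 1 and chronic 3; 1 and 2 with only the 6 arrays compared; and the acute count was 1 with centred arrays and 1 with a trend in the prior variance. Over all genes 1171, 1571 and 6 became 4019, 4675 and 6721 with array weights, 2624, 4665 and 1087 without naive 1 and chronic 3, and 762, 686 and 2 with only 6 arrays, and the count between the Th2 groups was 3 with the trend. The causes were not tested. With 1 array left out at a time, cytosolic counts ranged from 0 to 2, from 0 to 4 and from 0 to 0, mitochondrial counts from 1 to 3, from 2 to 7 and from 0 to 0, and counts over all genes from 653 to 2424, from 734 to 3438 and from 0 to 12. In each range that was not 0 throughout, the fit without naive 1 gave the highest count, equalled in 1 case by the fit without naive 3.

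The labels' replicate numbers are shared across groups, but deviations from the group means of same-numbered samples correlated between -0.09 and 0.57, so the numbers were not taken as pairs. With the replicate number as a block, the cytosolic count in chronic Th2 cells was 1, the mitochondrial count in acute Th2 cells was 1 and the count over all genes between the Th2 groups was 0.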
